A study of Homo sapiens with 18 samples.

Results

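The genes described here encode the enzymes of cholesterol and fatty acid synthesis and the proteins that regulate them. A total of 32 genes were chosen by name, of 11590 genes measured, and were sorted by role into sterol pathway enzymes (17), sterol sensing and transport (5), fatty acid synthesis (5) and fatty acid desaturases and elongases (5). A gene counted as measured if a probe for it had a detection p-value under 0.01 on at least 2 arrays, and its brightest such probe was used. By this rule 30 of the 32 genes were measured. FDFT1, which makes squalene, had no annotated probe, and the probe of STARD4, a sterol carrier, was detected on 0 arrays. Of the 30, MVK was detected on 12 of the 18 arrays, SREBF2 on 9 and FADS2 on 17, and the others on all 18.

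Cholesterol is built from acetyl-CoA through mevalonate, isoprenoid units, squalene and a series of sterol intermediates, while fatty acid synthesis condenses acetyl-CoA and malonyl-CoA into palmitate, which desaturases and elongases then modify. Both routes are controlled by the sterol regulatory element binding proteins, encoded by SREBF1 and SREBF2. SCAP escorts these factors from the endoplasmic reticulum to the Golgi for activation, and INSIG1 holds SCAP back when sterols are plentiful. Androgens are known to raise lipid synthesis genes in LNCaP cells.

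All samples were LNCaP, an androgen-responsive human prostate cancer cell line. Lines with a FOXA1 hairpin expressed GFP ("knockdown"), the mutants D226N, M253K, F266S, FENG, G87R or L388M, or wild-type FOXA1 (WT), and control cells expressed GFP with the empty hairpin vector pGIPZ. FOXA1 is a forkhead transcription factor that opens chromatin for other factors, including the androgen receptor. The name FENG is not explained in the labels and is used as given. After 3 days in medium with 5% charcoal-stripped serum, each of the 9 constructs received 1 nM R1881, a synthetic androgen, or ethanol for 24 hours. There was 1 array for each construct and treatment, and separate cultures are not stated for them, so p-values measure only the spread between these arrays, which may be technical.

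The mean raw signal of an array lay between 233.11 and 303.88, and 15855 to 17278 probes were detected. FOXA1 itself read 11.07 (R1881) and 11.16 (ethanol) log2 units in knockdown cells, against 11.73 and 11.93 in control cells. This was a difference of -0.71 ± 0.12 (SE, adjusted p = 0.00287, limma). Across the hairpin lines with wild-type or mutant FOXA1 its probe stayed at or under 11.10, and whether that probe can detect the introduced FOXA1 is not known. Of 8 markers of prostate luminal cells 6 were measured, and KLK3, KLK2, TMPRSS2 and KRT8 rose with R1881. The other 2, HOXB13 (-0.25 ± 0.09, adjusted p = 0.0746) and KRT18 (0.70 ± 0.42, adjusted p = 0.334), did not pass. Of 9 markers of other cells 2 were measured, COL1A1 and VWF. COL1A1 read 4.37 to 5.21 with R1881 and 4.53 to 5.36 with ethanol. VWF read 6.57 to 7.44 with R1881 and 6.10 to 7.12 with ethanol (difference 0.44 ± 0.09, adjusted p = 0.00514), and its part in the results was not tested. In these whole-culture RNA samples, fewer cells of a kind and less RNA per cell cannot be told apart. A total of 3 arrays lay furthest from the others of their treatment. No clear gap set the last of them, G87R ethanol, apart from the next array, M253K R1881 (0.158). The median distance of a gene from the median of the 9 arrays was 0.292 log2 units on M253K ethanol, 0.195 on FENG R1881 and 0.168 on G87R ethanol, and 0.0904 to 0.158 on the others. KRT18, a luminal keratin, read 4.33, 5.49 and 5.65 there and 6.995 to 8.117 on the other 15. These are called the deviating arrays, and calls of members that depend on them are given with and without them.

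The promoters of 4 members that carry the main results are shown as the 250 bases before the gene start (RefSeq, build GRCh38.p14). FADS1 and IDI1 had the largest androgen differences of the desaturase and elongase group and of the sterol pathway, and SCD and TM7SF2 had the largest differences in the knockdown comparison and in the class comparison of levels. Capitals mark matches to motifs searched on both strands. They are TCACNCC (a core of the sterol regulatory element) in FADS1 and IDI1 and CCAAT (bound by NF-Y, which works beside sterol regulatory element binding proteins) in SCD and TM7SF2, where it reads ATTGG on the strand shown. FADS1 lies at chr11:61817004-61817253 and IDI1 at chr10:1056705-1056954, both on the minus strand. SCD lies at chr10:100346983-100347232 and TM7SF2 at chr11:65111622-65111871, both on the plus strand.
FADS1: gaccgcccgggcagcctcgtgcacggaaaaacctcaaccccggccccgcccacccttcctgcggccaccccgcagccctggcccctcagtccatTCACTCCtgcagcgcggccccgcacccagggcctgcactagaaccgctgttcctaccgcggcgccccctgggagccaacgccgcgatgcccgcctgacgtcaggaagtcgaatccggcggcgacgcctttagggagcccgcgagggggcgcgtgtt
IDI1: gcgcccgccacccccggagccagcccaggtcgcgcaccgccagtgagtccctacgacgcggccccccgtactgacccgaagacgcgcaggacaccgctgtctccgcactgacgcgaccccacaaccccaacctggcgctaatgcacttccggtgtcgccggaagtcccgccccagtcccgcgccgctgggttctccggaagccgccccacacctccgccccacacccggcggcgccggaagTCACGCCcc
SCD: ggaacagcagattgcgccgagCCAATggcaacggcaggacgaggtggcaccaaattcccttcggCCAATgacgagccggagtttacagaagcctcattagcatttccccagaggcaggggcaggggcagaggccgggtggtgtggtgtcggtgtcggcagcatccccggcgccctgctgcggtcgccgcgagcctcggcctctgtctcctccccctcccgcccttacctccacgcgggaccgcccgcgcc
TM7SF2: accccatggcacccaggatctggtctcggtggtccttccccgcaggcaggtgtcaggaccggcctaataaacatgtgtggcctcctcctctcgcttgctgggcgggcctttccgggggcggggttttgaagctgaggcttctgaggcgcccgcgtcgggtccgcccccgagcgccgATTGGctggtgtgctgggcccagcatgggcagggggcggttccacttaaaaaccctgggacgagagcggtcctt

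The promoter table held 29 of the 32 members, all but FASN, SQLE and FDFT1, and the search covered 250 bases before to 50 after the start, using 1 promoter per gene. CCAAT occurred in 19 of the 29 (65.5%), against 35.7% of 27305 promoters. It was present in 12 of 15 sterol pathway genes, including HMGCS1, FDPS, LSS and DHCR7, in 3 of 5 sensing and transport genes, 2 of 4 fatty acid synthesis genes and 2 of 5 desaturases and elongases. TCACNCC occurred in 8 (27.6%, against 15.2% of promoters), namely HMGCS1, MVK, IDI1, MSMO1, NSDHL, SREBF2, ME1 and FADS1. The E-box CACGTG occurred in 5 (17.2%, against 7.43%), which were LSS, SC5D, INSIG1, SCAP and ELOVL5. A forkhead motif, GTAAACA, was found only in ELOVL6 among the 29 (3.45%, against 3.41%), and AGAACA, a half-site of the androgen receptor, only in PMVK (3.45%, against 14.9%). A motif match is a description of the letters and not a binding site.

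The androgen comparison asked which members changed with R1881 over the 9 constructs. Of the 30 measured members 15 rose and 1 fell (limma, Benjamini-Hochberg adjusted p under 0.05), while among all genes 5.86% rose and 7.57% fell. The median difference was 0.33 log2 units over the members and -0.02 over all genes. By role, 4 of 5 desaturases and elongases rose (median 0.75), as did 3 of 5 fatty acid synthesis genes (0.36), 2 of 4 sensing genes (0.26) and 6 of 16 sterol pathway genes (0.22), with 1 sterol pathway gene lower. Without the deviating arrays 17 members rose and 1 fell, including the same 16 members. In that fit EBP (0.34 ± 0.07, adjusted p = 0.00739) and LSS (0.37 ± 0.09, adjusted p = 0.0148) were added. The shares of all genes that passed in that fit are not given here, so the added calls cannot be set beside a background. The same holds where that fit is used in the knockdown, re-expression and mutant comparisons below.

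**Figure D1:**
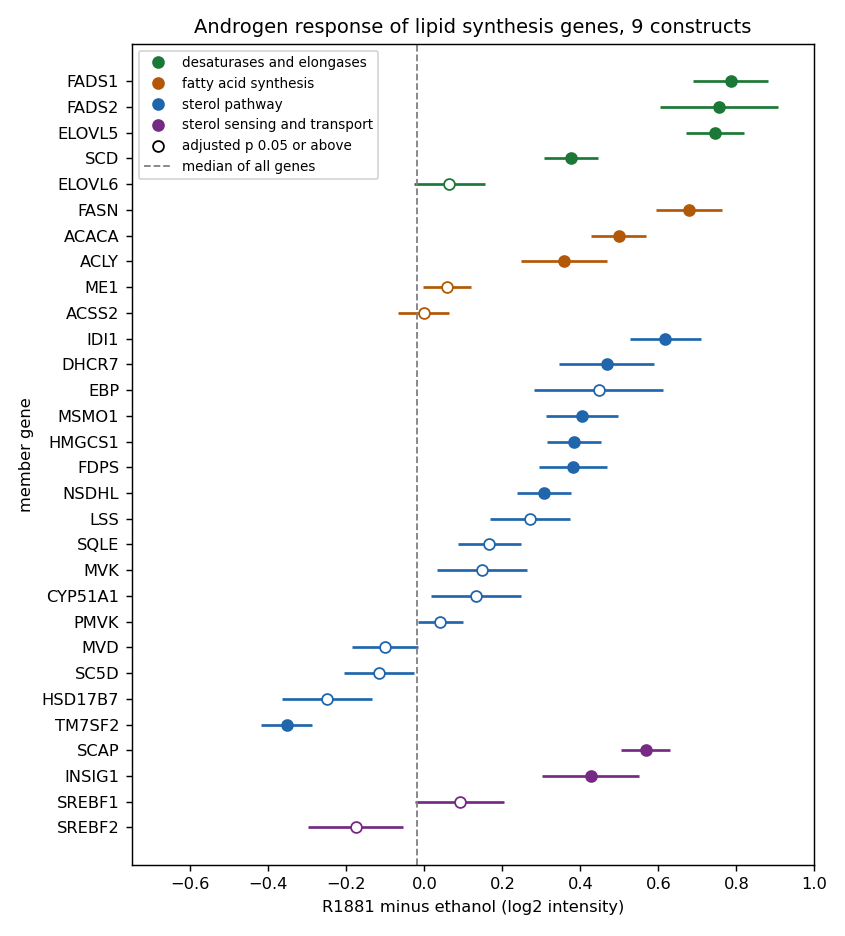
Difference in log2 intensity between R1881 and ethanol for each measured member, sorted by role, with points for the limma estimate over 9 constructs and bars for its standard error. Filled points passed the adjusted p threshold; they run from TM7SF2 at -0.35 to FADS1 at 0.78, and the dashed line is the median of all genes (-0.02).

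The highest differences were in the polyunsaturated fatty acid route. FADS1, a desaturase of that route, read 7.66, 8.23 and 8.31 log2 units (lowest, median and highest of 9 arrays) with R1881, against 6.89, 7.39 and 7.88 with ethanol. It was higher in 9 of 9 constructs, by 0.78 ± 0.10 (1.72-fold, adjusted p = 0.000143), although the ranges overlapped. ELOVL5, an elongase of the same route, read 9.81, 10.13 and 10.42 with R1881, against 8.95, 9.37 and 9.62 with ethanol. Its groups did not overlap, and the difference was 0.75 ± 0.07 (1.68-fold, adjusted p = 2.43e-05). FADS2, the other desaturase of the route, read 4.91, 5.97 and 6.52 with R1881, against 4.98, 5.23 and 5.57 with ethanol (0.76 ± 0.15, adjusted p = 0.00456). It was higher in 8 of 9 constructs, and the exception was FENG (-0.32), whose R1881 array was a deviating one. SCD, which introduces the double bond of oleate, read 10.11, 10.65 and 11.23 with R1881, against 9.82, 10.45 and 11.06 with ethanol. The groups overlapped widely, but SCD was higher in 9 of 9 constructs (0.38 ± 0.07, adjusted p = 0.00256). ELOVL6, which lengthens palmitate, did not pass (0.06 ± 0.09).

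Within fatty acid synthesis, FASN, the synthase that makes palmitate, read 12.13, 12.57 and 13.06 with R1881, against 11.64, 11.94 and 12.17 with ethanol. It was higher in 9 of 9 constructs, by 0.35 to 0.97, with an estimate of 0.68 ± 0.08 (1.60-fold, adjusted p = 0.00016). ACACA, which makes malonyl-CoA, read 10.16, 10.75 and 11.07 with R1881, against 9.85, 10.19 and 10.48 with ethanol (0.50 ± 0.07, adjusted p = 0.000399, higher in 9 of 9). Its second probe gave 0.43. ACLY, which releases acetyl-CoA from citrate, was higher in 8 of 9 constructs (0.36 ± 0.11, adjusted p = 0.0488). This call sat at the threshold and was lost when the arrays of control, knockdown, WT, G87R, D226N, FENG, F266S or L388M were left out in turn (0.30 to 0.39). The second ACLY probe gave 0.26, and averaging the probes also lost the call (adjusted p = 0.0667). So did the deposited processed values (adjusted p = 0.0504) and no detection filter (adjusted p = 0.0836). ACSS2, which activates acetate, and ME1, a malic enzyme that supplies NADPH, gave -0.0022 ± 0.0661 and 0.06 ± 0.06 and did not pass.

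In the sterol pathway, 6 enzymes rose and they lay at both ends of the route. IDI1, which isomerises isopentenyl diphosphate, read 7.15, 7.43 and 7.63 with R1881, against 6.47, 6.85 and 7.29 with ethanol. It was higher in 9 of 9 constructs (0.62 ± 0.09, 1.53-fold, adjusted p = 0.000609). HMGCS1, the synthase that makes HMG-CoA, read 9.19, 9.31 and 9.74 with R1881, against 8.64, 8.99 and 9.36 with ethanol (0.38 ± 0.07, adjusted p = 0.00214, higher in 9 of 9). FDPS, which makes farnesyl diphosphate, read 7.30, 7.53 and 7.75 with R1881, against 6.73, 7.19 and 7.38 with ethanol (0.38 ± 0.09, adjusted p = 0.0113). The ranges of all 3 genes overlapped between treatments. Of the late enzymes, MSMO1 and NSDHL, which act in removing methyl groups from the sterol ring, differed by 0.40 ± 0.09 (adjusted p = 0.0109) and 0.31 ± 0.07 (adjusted p = 0.0101). DHCR7, which catalyses the last step to cholesterol, differed by 0.47 ± 0.12 (adjusted p = 0.0233). Each of these 3 was higher in 8 of 9 constructs. The DHCR7 call was lost without control (0.44), knockdown (0.43), WT (0.43) or D226N (0.46) cells. The MSMO1 call was lost when its 3 probes, which gave 0.16, 0.61 and 0.40 separately, were averaged (adjusted p = 0.14).

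TM7SF2, a sterol reductase of the late pathway, was the only member that fell. It read 9.69, 9.86 and 10.46 with R1881, against 9.92, 10.17 and 10.80 with ethanol, and was lower in 9 of 9 constructs (-0.35 ± 0.07, adjusted p = 0.00273). The other 9 measured sterol enzymes did not pass. EBP, a sterol isomerase, differed by 0.45 ± 0.17 and LSS, which closes the ring of lanosterol, by 0.27 ± 0.10. EBP ranged from -0.56 in FENG to 1.62 in M253K, and both constructs hold a deviating array. SQLE, which oxidises squalene, gave 0.17 ± 0.08 and CYP51A1, which demethylates lanosterol, 0.13 ± 0.12. The mevalonate kinases MVK and PMVK gave 0.15 ± 0.12 and 0.04 ± 0.06, and MVD, the decarboxylase after them, gave -0.10 ± 0.08. The sterol desaturase SC5D and the ketosteroid reductase HSD17B7 gave -0.12 ± 0.09 and -0.25 ± 0.12.

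Among the regulators, SCAP read 10.15, 10.44 and 10.69 with R1881, against 9.74, 9.85 and 10.01 with ethanol. The groups did not overlap, and SCAP was higher in 9 of 9 constructs (0.57 ± 0.06, 1.48-fold, adjusted p = 6.3e-05). INSIG1 was higher in 7 of 9 (0.43 ± 0.12, adjusted p = 0.0384). That call was lost without control (0.38), WT (0.39), G87R (0.42), D226N (0.43), M253K (0.37), F266S (0.45) or L388M (0.39) cells. The factors themselves did not pass, with 0.09 ± 0.11 for SREBF1 and -0.18 ± 0.12 for SREBF2, a dim probe.

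**Figure D2:**
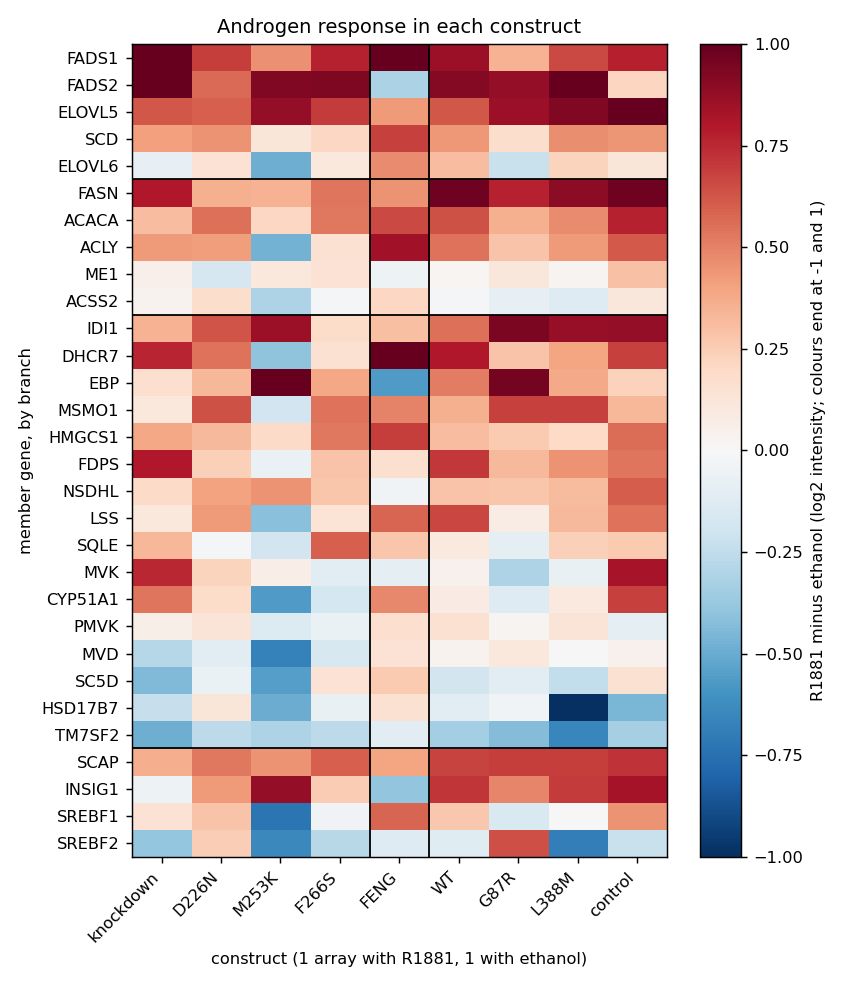
R1881 minus ethanol difference (log2 intensity) of each measured member in each construct, 1 array against 1, with members grouped by role and horizontal lines between roles. Vertical lines set off knockdown, D226N, M253K and F266S on the left, FENG, and WT, G87R, L388M and control on the right; FADS1, ELOVL5, SCAP, FASN and SCD are positive in all 9 columns and TM7SF2 is negative in all 9.

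Other genes of lipid metabolism, listed by function, gave a different count. The shares of all genes beside it were 5.86% that rose and 7.57% that fell. Of 13 measured sterol genes outside the synthesis pathway, 1 rose and 4 fell with R1881 (median -0.01). ABCA1, which exports cholesterol, read 4.43, 4.96 and 5.18 with R1881, against 5.23, 6.33 and 6.90 with ethanol. The groups did not overlap (-1.35 ± 0.12, adjusted p = 8.48e-06), but its probe was detected on 5 of 9 R1881 arrays, against 9 of 9 ethanol arrays, so part of the lower group was not above background. The exporter ABCG1 (-0.57 ± 0.10), MYLIP, a ligase that removes lipoprotein receptors (-0.50 ± 0.06), and INSIG2 (-0.73 ± 0.08), a relative of INSIG1, also fell. SOAT1, which esterifies cholesterol, rose (0.41 ± 0.08). Of 14 other fatty acid synthesis and elongation genes 3 rose, IDH1 (0.65 ± 0.07), ELOVL7 (0.59 ± 0.11) and ELOVL1 (0.43 ± 0.11), and 0 fell. Of 13 genes of fatty acid activation, storage and oxidation, ACSL1, an acyl-CoA synthetase, rose (0.32 ± 0.09) and the others did not pass.

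The knockdown comparison asked how members differed when FOXA1 was reduced, with 2 arrays against 2. SCD, TM7SF2 and ACACA fell, against 3.74% of all genes, and 0 members rose. SCD read 10.23 (R1881) and 9.82 (ethanol) in knockdown cells, against 11.15 and 10.71 in control cells. The difference was -0.90 ± 0.15 (adjusted p = 0.00188), and both knockdown arrays lay below both control arrays. TM7SF2 read 9.69 and 10.17 in knockdown cells, against 10.46 and 10.80 in control cells (-0.70 ± 0.14, adjusted p = 0.00666). ACACA read 10.16 and 9.85 in knockdown cells, against 11.07 and 10.30 in control cells (-0.69 ± 0.15, adjusted p = 0.0114). The TM7SF2 and ACACA calls were lost without the R1881 array of knockdown (adjusted p = 0.0822 and 0.127) or of control cells (0.059 and 0.152). Without the deviating arrays these 3 calls held, and ELOVL6 was also lower (-0.57 ± 0.12, adjusted p = 0.00966). VWF, a marker of other cells, also differed, by -0.87 ± 0.19 (adjusted p = 0.0117), and its part in these differences was not tested.

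Adding wild-type FOXA1 back to hairpin cells gave higher SCD and ACACA, while 2.03% of all genes rose. SCD read 11.14 (R1881) and 10.70 (ethanol) in WT cells, against 10.23 and 9.82 in knockdown cells (0.90 ± 0.15, adjusted p = 0.00291). ACACA read 10.90 and 10.27 in WT cells, against 10.16 and 9.85 in knockdown cells (0.59 ± 0.15, adjusted p = 0.042), but this call was lost in 13 of 25 alternative settings (0.48 to 0.69 over the 25). Among them were those without either array of knockdown, WT, G87R, D226N, F266S or L388M cells. TM7SF2 differed by 0.41 ± 0.14 and did not pass (adjusted p = 0.143). Without the deviating arrays ELOVL6 was also higher in WT cells (0.59 ± 0.12, adjusted p = 0.0125). This comparison shares the knockdown arrays with the one above, so the 2 are not independent.

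Each mutant was then set against WT, and all 6 comparisons share the WT arrays. SCD fell in M253K (-0.87 ± 0.15, adjusted p = 0.00177) and FENG (-0.63 ± 0.15, adjusted p = 0.0239). It read 10.11 (R1881) and 9.99 (ethanol) in M253K cells and 10.63 and 9.96 in FENG cells, against 11.14 and 10.70 in WT cells. In D226N and F266S cells SCD differed by -0.55 ± 0.15 (adjusted p = 0.115) and -0.37 ± 0.15 (adjusted p = 0.191), and all 4 arrays of these mutants lay below both WT arrays. Without the deviating arrays the D226N difference passed (adjusted p = 0.0243). That fit also called ELOVL6 lower in M253K (-0.56 ± 0.15, adjusted p = 0.0353) and FENG (-0.63 ± 0.15, adjusted p = 0.0392), and FADS1 lower in F266S (-0.59 ± 0.15, adjusted p = 0.0307). In M253K it also called SREBF1 (-0.77 ± 0.17, adjusted p = 0.0146) and ACLY (-0.59 ± 0.16, adjusted p = 0.0353) lower. The FENG call was lost without either WT array or the FENG ethanol array (adjusted p = 0.121 to 0.178). ME1 rose in F266S (0.58 ± 0.13, adjusted p = 0.0188), with 9.06 and 8.92 in F266S cells against 8.42 and 8.40 in WT cells, and lost its call without any 1 of these 4 arrays (adjusted p = 0.094 to 0.181). SC5D rose in M253K (0.66 ± 0.19, adjusted p = 0.0356), but not without the M253K ethanol array (0.42, adjusted p = 0.245), either WT array or either D226N array. In G87R and L388M cells 0 members passed. The shares of all genes that passed in either direction were 13.1% for M253K, 5.93% for FENG and 5.56% for F266S. They were 1.41% for D226N, 0.00863% for L388M and 0% for G87R. With all arrays, 2 of the 30 measured members passed in M253K, 1 in FENG, 1 in F266S and 0 in D226N. Members therefore did not pass more often than all genes in any mutant, and the counts were not tested against these shares. Shares of all genes for the fit without the deviating arrays are not given here.

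To use constructs as replicates, they were put into 2 classes. The depleted or forkhead-mutant class held the knockdown line and D226N, M253K and F266S, mutants of residues within the DNA-binding forkhead. The intact-forkhead class held WT, control and the mutants G87R and L388M, changed outside that domain. FENG stood alone. On the mean of both treatments, 5 members were lower (background 5.26% of genes) and 1 was higher (background 4.35%) in the depleted or forkhead-mutant class. The lower members were SCD, FADS1 and ELOVL6 among 5 desaturases and elongases, FASN and TM7SF2, and the higher one was ME1. The median difference was -0.38 over the desaturases and elongases, -0.29 over fatty acid synthesis, -0.10 over sensing genes, 0.02 over the sterol pathway and -0.01 over all genes.

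**Figure D3:**
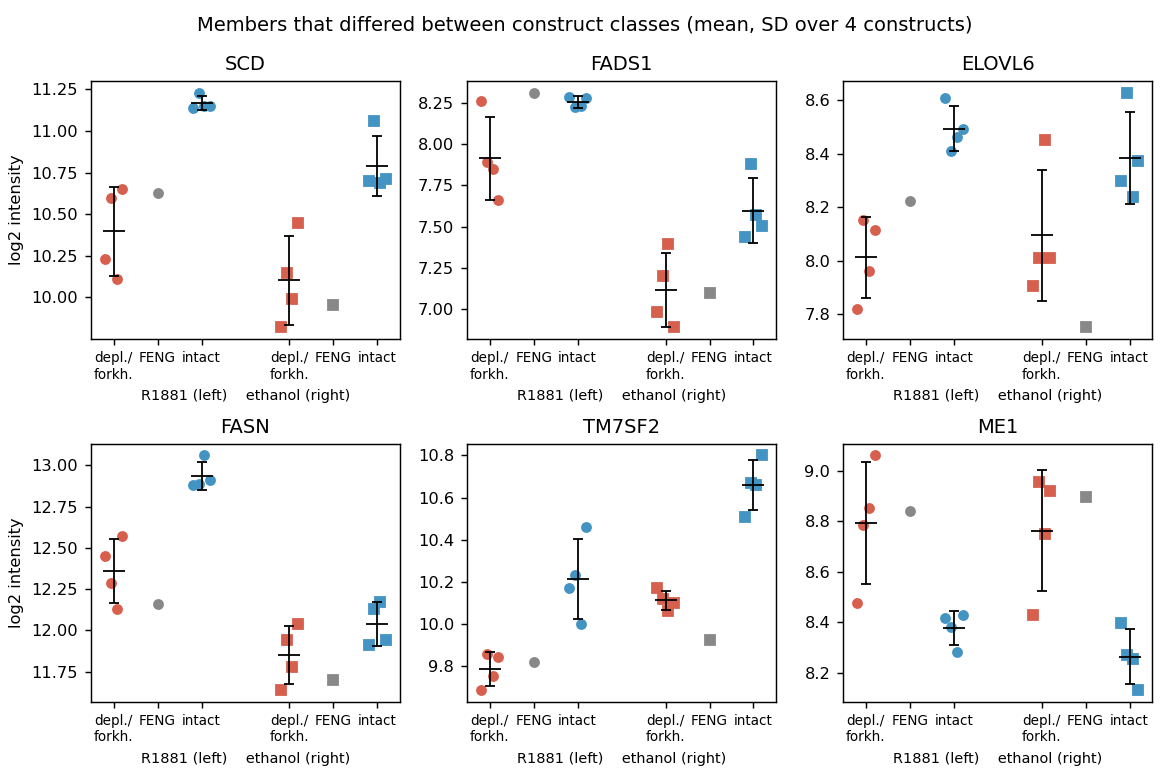
Log2 intensity of the 6 members that passed in the class comparison of levels, on each array, with R1881 on the left and ethanol on the right of each panel. Red points are knockdown, D226N, M253K and F266S, grey is FENG and blue points are WT, G87R, L388M and control; black marks give the mean and SD over 4 constructs. SCD is lower and ME1 higher on every red array than on every blue array of the same treatment, and the y axes start above 0.

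SCD with R1881 read 10.23, 10.60, 10.11 and 10.65 in knockdown, D226N, M253K and F266S cells, against 11.14, 11.23, 11.15 and 11.15 in WT, G87R, L388M and control cells. With ethanol it read 9.82, 10.15, 9.99 and 10.45 in knockdown, D226N, M253K and F266S cells, against 10.70, 11.06, 10.69 and 10.71 in WT, G87R, L388M and control cells. The classes did not overlap under either treatment, and FENG read 10.63 and 9.96. On the construct means the difference was -0.73 ± 0.13 (1.66-fold lower, adjusted p = 0.0108). TM7SF2 with R1881 read 9.69, 9.86, 9.75 and 9.84 in knockdown, D226N, M253K and F266S cells, against 10.17, 10.23, 10.00 and 10.46 in WT, G87R, L388M and control cells. With ethanol it read 10.17, 10.12, 10.06 and 10.10 in knockdown, D226N, M253K and F266S cells, against 10.51, 10.67, 10.66 and 10.80 in WT, G87R, L388M and control cells. It was the only member that passed in ethanol alone (-0.54 ± 0.10, adjusted p = 0.0414, background 0.38% lower). That call was lost without the constructs that hold a deviating array (adjusted p = 0.0911) and without any 1 construct other than M253K or FENG (0.0525 to 0.127). On the construct means it differed by -0.49 ± 0.08 (adjusted p = 0.0111).

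ME1 with R1881 read 8.48, 8.79, 8.85 and 9.06 in knockdown, D226N, M253K and F266S cells, against 8.42, 8.38, 8.28 and 8.43 in WT, G87R, L388M and control cells. With ethanol it read 8.43, 8.96, 8.75 and 8.92 in knockdown, D226N, M253K and F266S cells, against 8.40, 8.27, 8.26 and 8.13 in WT, G87R, L388M and control cells. The classes did not overlap but the knockdown arrays lay close to the intact-forkhead ones, and the difference was 0.46 ± 0.11 (adjusted p = 0.0341). FADS1 differed by -0.41 ± 0.10 (adjusted p = 0.0289), ELOVL6 by -0.38 ± 0.09 (adjusted p = 0.0281) and FASN by -0.38 ± 0.09 (adjusted p = 0.0335). A second ELOVL6 probe gave -0.44. Of members that did not pass, second probes of ACLY, SREBF1 and ACACA gave -0.59, -0.545 and -0.39. The probes used gave -0.29, -0.36 and -0.35. Other probes of SQLE, MSMO1, DHCR7 and ACSS2 lay between -0.07 and 0.12. All 6 calls were lost when the constructs with a deviating array were left out (M253K, FENG and G87R, leaving 3 against 3), with adjusted p between 0.0643 and 0.136. The differences were then -0.61 for SCD, -0.47 for TM7SF2, 0.45 for ME1, -0.41 for FADS1, -0.41 for ELOVL6 and -0.33 for FASN. They all passed in an additive fit that dropped only the 3 arrays themselves (adjusted p from 1.26e-05 to 0.00509), whose error leaves out the spread between constructs of a class, so the errors of the 2 fits are not the same. SCD and TM7SF2 also passed with each single construct left out. ELOVL6 did not pass without WT, G87R, F266S or control (adjusted p up to 0.0854), nor FADS1 without these or L388M (up to 0.0887). FASN did not pass without any 1 construct other than F266S or FENG (up to 0.0925), nor ME1 without any 1 other than knockdown or FENG (up to 0.09).

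On the R1881 arrays alone 6 members were lower in the depleted or forkhead-mutant class, while 5.32% of all genes were lower, and 0 members were higher. FASN with R1881 read 12.45, 12.29, 12.13 and 12.57 in knockdown, D226N, M253K and F266S cells, against 12.88, 12.89, 13.06 and 12.91 in WT, G87R, L388M and control cells. The classes did not overlap (-0.58 ± 0.11, 1.49-fold lower, adjusted p = 0.0126). SCD differed by -0.77 ± 0.13 (adjusted p = 0.0085) and ELOVL6 by -0.48 ± 0.10 (adjusted p = 0.0167). ACLY with R1881 read 10.89, 10.93, 10.68 and 10.78 in knockdown, D226N, M253K and F266S cells, against 11.32, 11.33, 11.08 and 11.35 in WT, G87R, L388M and control cells (-0.45 ± 0.10, adjusted p = 0.0202). SREBF1 with R1881 read 8.72, 8.51, 8.09 and 8.34 in knockdown, D226N, M253K and F266S cells, against 8.90, 8.97, 8.78 and 8.91 in WT, G87R, L388M and control cells (-0.48 ± 0.13, adjusted p = 0.0452). TM7SF2 differed by -0.43 ± 0.11 (adjusted p = 0.0328). In each of these 6 genes the classes did not overlap, and the share of all genes that did so is not given here. Counting FENG with the depleted or forkhead-mutant class, ACLY (-0.37, adjusted p = 0.0736) and SREBF1 (-0.39, adjusted p = 0.102) did not pass. SREBF1 was also lost with median scaling (adjusted p = 0.0591) and with no detection filter (adjusted p = 0.068). FASN and SCD passed with each single construct left out, and ELOVL6 did so except without WT (adjusted p = 0.0556). SREBF1 was lost without any 1 construct other than knockdown or FENG (up to 0.11). ACLY was lost without WT, G87R, M253K, F266S or control (up to 0.0631), and TM7SF2 without these or knockdown (up to 0.0822).

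**Figure D4:**
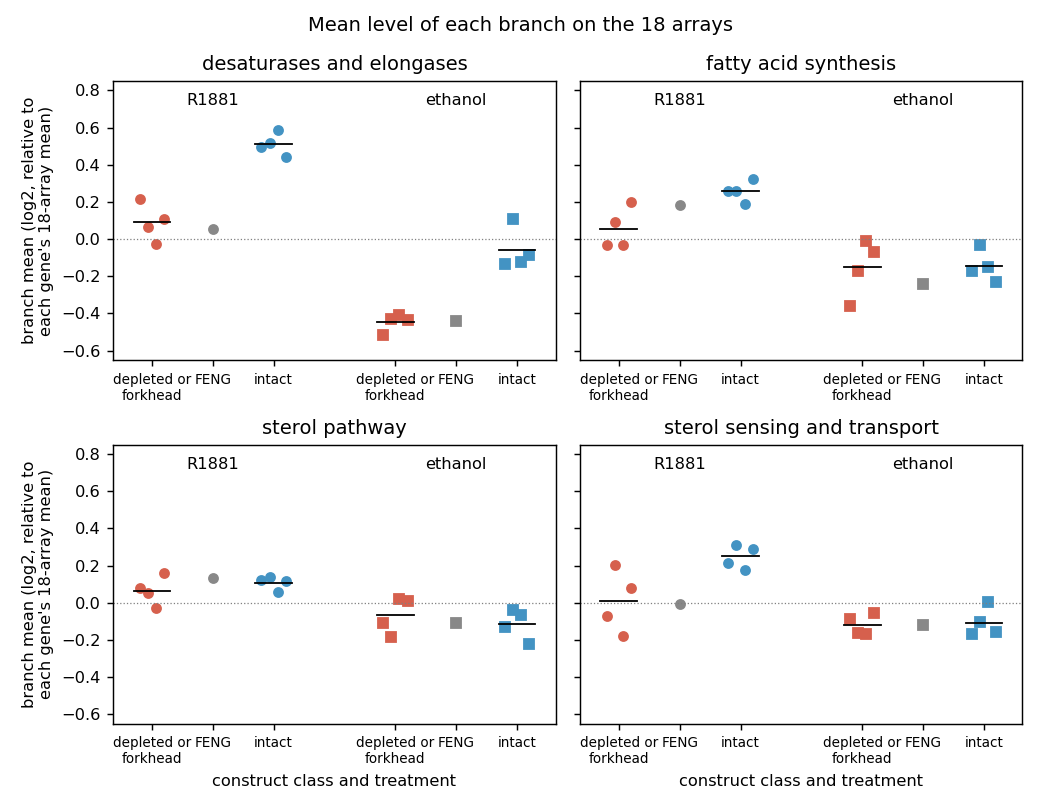
Mean of each role's measured genes on each array, in log2 units relative to each gene's mean over 18 arrays, with R1881 arrays as circles on the left and ethanol arrays as squares on the right. Red, grey and blue mark the depleted or forkhead-mutant class, FENG and the intact-forkhead class, and black lines are means of 4 arrays. The desaturases and elongases separate by class under both treatments, and the other roles do not.

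The mean level of each role was described on every array, relative to each gene's mean over the 18 arrays. For the desaturases and elongases with R1881 it averaged 0.09 in the depleted or forkhead-mutant class (-0.03 to 0.21) and 0.51 in the intact-forkhead class (0.44 to 0.59). With ethanol it averaged -0.45 (-0.52 to -0.41) in the depleted or forkhead-mutant class and -0.06 (-0.13 to 0.11) in the intact-forkhead class. Fatty acid synthesis with R1881 averaged 0.06 (-0.03 to 0.20) in the depleted or forkhead-mutant class and 0.26 (0.19 to 0.32) in the intact-forkhead class, and with ethanol -0.15 in both. Behind these equal ethanol means, ME1 (0.50) and ACSS2 (0.04) were higher in the depleted or forkhead-mutant class. ACACA (-0.27), FASN (-0.19) and ACLY (-0.12) were lower there, and none of these ethanol differences passed. The sterol pathway overlapped between classes under both treatments, as did fatty acid synthesis and the sensing genes. With R1881 the sterol pathway averaged 0.07 in the depleted or forkhead-mutant class and 0.11 in the intact-forkhead class. With ethanol the sterol pathway averaged -0.07 in the depleted or forkhead-mutant class and -0.12 in the intact-forkhead class. The sensing genes with R1881 averaged 0.01 (-0.18 to 0.21) in the depleted or forkhead-mutant class and 0.25 (0.18 to 0.31) in the intact-forkhead class. With ethanol they averaged -0.12 in the depleted or forkhead-mutant class and -0.11 in the intact-forkhead class.

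Of the 6 measured luminal markers, KLK3 and TMPRSS2, which are also androgen-regulated, moved with the same classes. KLK2, KRT8, KRT18 and HOXB13 did not pass, and 0 of the 6 had a higher estimate. The lowest KLK3 value, 4.78, was on M253K ethanol, a deviating array. On the construct means KLK3 differed by -1.23 ± 0.28 (adjusted p = 0.0271) and TMPRSS2 by -0.96 ± 0.13 (adjusted p = 0.00629) between the depleted or forkhead-mutant class and the intact-forkhead class. Their part in the result was not tested. Of the other lipid genes, ACSL5, an acyl-CoA synthetase, was higher in the depleted or forkhead-mutant class (1.20 ± 0.21, adjusted p = 0.0117). Its probe was detected on 8 of 8 arrays of that class, against 3 of 8 of the intact-forkhead class. INSIG2 (-0.91 ± 0.14), SLC25A1, the mitochondrial citrate carrier (-0.48 ± 0.08), MID1IP1, an activator of acetyl-CoA carboxylase (-0.38 ± 0.08), and GPAM, which starts glycerolipid synthesis (-0.32 ± 0.08), were lower. That was 1 of 13 other sterol genes and 2 of 14 other fatty acid synthesis genes lower. Of 13 activation, storage and oxidation genes 1 was higher and 1 lower. Among all genes 5.26% were lower and 4.35% higher, and the counts were not tested against these shares.

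The last comparison asked whether the androgen response itself differed between classes. It was tested on the R1881 minus ethanol difference of each construct, and 0 members passed, as did 0% of all genes (limma, 534 genes at an unadjusted p under 0.05, 2 of them members). For FASN the response was 0.80, 0.35, 0.35 and 0.54 in knockdown, D226N, M253K and F266S cells, against 0.97, 0.77, 0.89 and 0.97 in WT, G87R, L388M and control cells. The difference was -0.39 with a 95% interval of -0.70 to -0.07 before adjustment over genes (adjusted p = 0.994). For MVD it was -0.35 (-0.68 to -0.03, adjusted p = 0.998). MVD responded by -0.28, -0.11, -0.67 and -0.16 in knockdown, D226N, M253K and F266S cells. In the intact-forkhead class it responded by 0.0031 to 0.10. M253K holds a deviating array, and the MVD difference without it is not given here. SCAP responded by 0.36, 0.53, 0.45 and 0.60 in knockdown, D226N, M253K and F266S cells, against 0.68, 0.70, 0.69 and 0.72 in WT, G87R, L388M and control cells. The classes did not overlap, and the difference was -0.21 (-0.47 to 0.05, adjusted p = 0.998). SCAP and MVD were the only members whose responses did not overlap between classes. The share of all genes that did so is not given here. For SCD the difference was -0.08 (-0.38 to 0.22) and for FADS1 0.14 (-0.28 to 0.56), so a smaller or larger response of such sizes was not detectable with 4 constructs against 4.

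By class, 7 members rose with R1881 in the depleted or forkhead-mutant class, against 2.4% of all genes. They were FADS1, FADS2, ELOVL5, FASN, ACACA, IDI1 and SCAP. In the intact-forkhead class 11 members rose, against 3.41% of all genes. These were the same 7 with SCD, NSDHL, FDPS and INSIG1. TM7SF2 fell there, against 3.96% of all genes. The median response of the members was 0.25 in the depleted or forkhead-mutant class and 0.37 in the intact-forkhead class. SCD responded by 0.30 ± 0.10 in the depleted or forkhead-mutant class and by 0.38 ± 0.10 in the intact-forkhead class, so its call in 1 class alone does not show a difference.

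**Figure D5:**
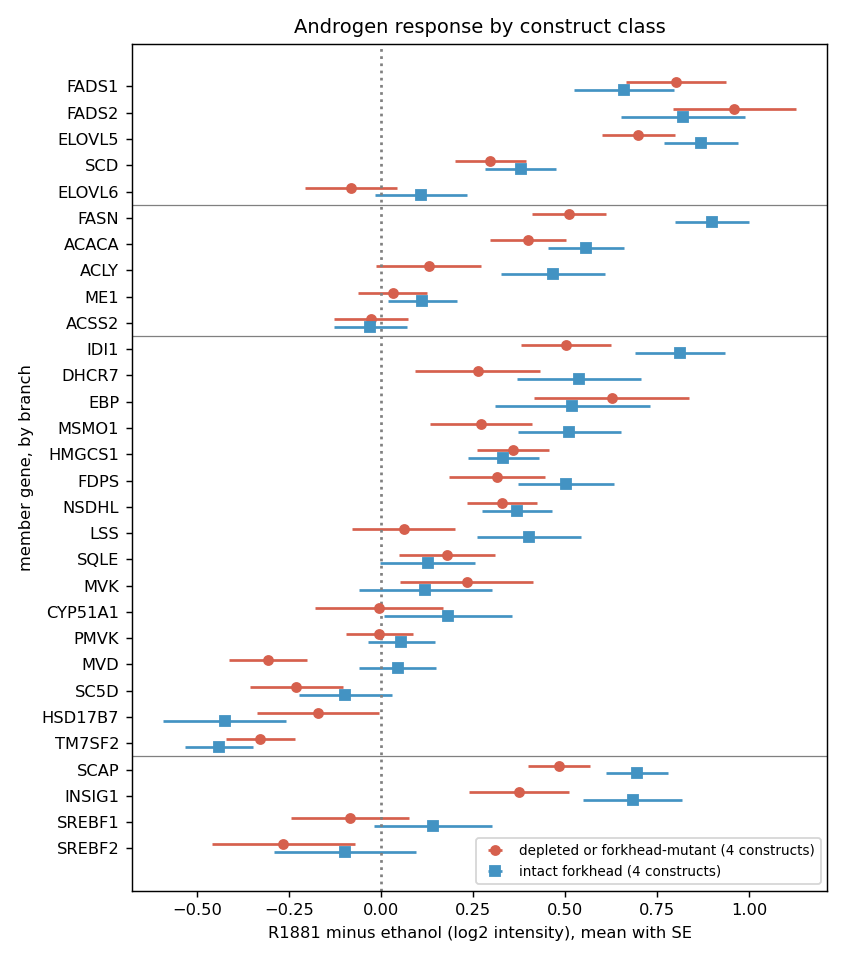
Mean R1881 minus ethanol difference (log2 intensity) of each measured member in the depleted or forkhead-mutant class (red circles) and the intact-forkhead class (blue squares), 4 constructs each, with standard errors. The pairs of points lie close for FADS1, ELOVL5 and SCD. FASN (0.51 in red, 0.90 in blue) and MVD (-0.31 in red, 0.05 in blue) gave the lowest p-values in the test of the difference. The MVD mean in red includes M253K (-0.67), which holds a deviating array.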

How the data were processed

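Total RNA from 18 samples was measured on Illumina bead arrays. Per the file headers, the deposited table gives raw intensity and detection p-values of 47303 probes, and the submitters' processing notes name GenomeStudio. A second table deposited by the authors holds processed intensity values that run down to -15.4 with a median of 5.2 over all arrays, and was an alternative only. Its making is not stated.

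In R 4.3.3 with limma 3.58.1 neqc estimated background from detection p-values (offset 16), followed by quantile normalization and log2. The offset shrinks differences of dim genes. Probes with detection p under 0.01 on at least 2 arrays were kept (20117), genes came from the platform annotation (30102 probes with 1 gene, 8 with several, 17193 with none), and the brightest probe stood for each of 11590 genes. The number of arrays limits the precision. Symbols were updated through the GRCh38.p14 gene table.

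An additive limma fit of construct and treatment (8 residual degrees of freedom) gave the androgen, knockdown, re-expression and mutant comparisons. The difference between constructs in their response stood in for missing repeats. Class comparisons used the construct as the unit (6 residual degrees of freedom). The threshold was a Benjamini-Hochberg adjusted p under 0.05 over all genes, and the fits were tested on simulated data. Alternatives changed normalization, source values, filter, probe choice, weights, arrays and classes. All listed members are reported, and other pathway genes are named where they passed in the androgen or class level comparison. Members, lists, classes and deviating arrays were chosen with earlier results of these data known. No batch was tested, since slide and scan date are unknown here.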

Additional observations from a re-analysis of the deposited data

Results flagged for a closer look

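Each member was examined in 2 sets of 9 arrays, those with R1881 and those with ethanol, and 6 of 60 sets held an array whose gap to its nearest neighbour was large for the range of the set. Chance alone marks about 5% of sets. A total of 3 were on M253K ethanol, where EBP read 6.613 (nearest array 7.494), INSIG1 8.524 (nearest 9.075) and SC5D 10.76 (nearest 10.28). On FENG R1881, EBP read 7.388 (nearest 8.234) and FADS2 4.909 (nearest 5.711). FDPS read 6.726 on knockdown ethanol (nearest 7.05).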

How the results depend on the processing

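Of the 16 androgen calls, 12 held in every alternative in which they were tested, and 0 results changed direction. With 1 array left out, members called numbered 13 to 16 for androgen, 1 to 4 for knockdown and 1 to 3 for re-expression. Members called numbered 1 to 5 for M253K, 0 to 2 for FENG and 0 to 1 for F266S. Among all genes, calls ran from 1185 to 1910 for androgen, 459 to 1324 for knockdown and 207 to 751 for re-expression. All-gene calls ran from 620 to 3204 for M253K, 197 to 1017 for FENG and 205 to 970 for F266S. The class comparison gave 2 to 7 for level, 0 to 1 in ethanol and 2 to 8 with R1881. Its all-gene calls ran from 339 to 1248 for level and 450 to 1266 with R1881. All-gene counts for the settings that follow are not given here. Changes in member counts were not tested against changes in all genes, so they do not show an effect particular to the members. Median scaling gave 1 for re-expression, 1 for M253K and 0 for the class in ethanol. Array weights gave 4 for re-expression, 2 for D226N, 1 for M253K, 5 for F266S and 4 for the class in ethanol. With no detection filter M253K had 4 and FENG 3, with probes detected on all arrays FENG had 2, and with the mean of probes FENG had 2. Without the deviating arrays knockdown had 4, re-expression 3, D226N 1, M253K 4, FENG 2, F266S 2, the class level 0 and the class in ethanol 0. Counting FENG with the depleted or forkhead-mutant class gave 3 in ethanol. Mutant lines alone (3 constructs against 2) gave 0 for level, 0 in ethanol and 0 with R1881, with fewer constructs in the fit. The additive fit gave 10 for level, and 11 without the deviating arrays, a setting chosen after seeing the data. The other causes were not tested. With 1 array per condition, median standard errors were 0.0869 for the androgen difference and 0.184 for a pair of constructs, which limits what could be detected between single constructs.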
